A study of Arundo donax with 12 samples.

Results

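Leaves and roots of giant reed (Arundo donax), a perennial grass grown for biomass, were compared in plants that had received no cadmium. The comparison rests on 6 of the 12 libraries of the series, leaf replicates 1 to 3 (CK_L) and root replicates 1 to 3 (CK_R) of the G10 ecotype. The control pots held clay soil with ammonium nitrate in place of the 4 mg/kg of cadmium nitrate that the treated pots (Cd_L and Cd_R) received, each pot was planted with a single stem node, and all plants came from the same ecotype and grew in open air for the same period. Into this baseline were placed the 56 unigenes of the study's main list of named cadmium candidates and the 220 unigenes of its wider lists by pathway, which share 33 members and hold 243 different unigenes, out of 126668 in the count table. A unigene is the longest transcript of a cluster of assembled transcripts, and its name rests on a match to a protein of another species. The study took these unigenes from the differences between treated root and treated leaf that it had not called between control root and control leaf, so these same control libraries helped to choose them. Under the test used here the rule does not hold in full, since 6 of the 56 and 10 of the 220 were called between the control organs. Of the 6, the CRF5-related member was also tested and not called between the treated organs. It is in the study's list of unigenes that differed between treated and control root as well. Every count of called members given here is therefore a description of how the lists were made, and it is not a test of them.

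Roots take up water, nitrate, phosphate and metals, and they grow through soil by loosening and rebuilding cell walls. Leaves hold the photosynthetic apparatus and are the main source of sugars. Hormones such as auxin, ethylene, abscisic acid and gibberellin, and short secreted peptides of the CLE and CEP families, carry signals between and within both organs, and the metal transporters of the Nramp and HMA families move iron, manganese, zinc or cadmium across membranes.

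The study assayed 1 unigene by qRT-PCR for the contrast of control leaf and control root, the glucosyltransferase UGT85A23 (Cluster-14691.61095), and used a cyclin dependent kinase (Cluster-14691.35187) as the reference gene. Their primer pairs are printed because they state which stretch of each transcript was assayed and because a reference gene is chosen for a steady level. Capitals are not used, since no part of a primer is singled out.
UGT85A23 forward: cctgaccaacggatacctcg
UGT85A23 reverse: accatgaagtcgttcgggtc
Cyclin dependent kinase forward: catacgggcaagtgttcatgg
Cyclin dependent kinase reverse: tccttgagctggatgacgttc
In CPM (counts scaled to a common library size by TMM, a normalization that trims the most extreme unigenes), UGT85A23 stood at 4.40, 5.48 and 11.5 in the leaf libraries and at 1.32, 2.30 and 2.98 in the root libraries. Every leaf library lay above every root library. The log2 fold change of root minus leaf was -1.69 ± 0.49 (SE, n = 3 per organ, edgeR adjusted p = 0.0266). The study had selected this unigene as a DEG of these same libraries, so the difference is favoured by the choice and is not a test. The reference kinase stood at 23.5, 29.7 and 30.7 in leaf and at 23.0, 24.4 and 22.9 in root. Its ranges overlapped, and its log2 fold change was -0.25 ± 0.23 (edgeR adjusted p = 0.410), which turned to 0.25 when library totals were used without TMM.

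The organs differed in a large part of the transcriptome. The 6 libraries held 22501889 to 26033537 counts each, and the first principal component, with 82.8% of the variance, parted leaf from root. Libraries of one organ correlated at 0.899 to 0.964 (Pearson's r over unigenes of log2 CPM) and libraries of different organs at 0.449 to 0.589. CK_R replicate 3 stood apart within the root, with 100351 unigenes that had a count against 81443 and 87750 in the other two, and with 11136 unigenes that no other control library counted, against 448 to 1131 in each of the rest. Of 54084 unigenes with enough counts to test, 21172 (39.1%) were DEGs, with a Benjamini-Hochberg adjusted p of at most 0.05 in edgeR's quasi-likelihood test and a difference of 2-fold or more between the organs. Higher in root were 12060 (22.3%) and lower in root 9112 (16.8%). With library totals and no TMM, the log2 fold change of a unigene moved up by a median of 0.490, and the split became 16401 higher and 6444 lower. Counting in one organ alone was more frequent on the root side. Of the 115498 unigenes with a count in any control library, 25958 (22.5%) had no count in leaf and 5659 (4.90%) had none in root. Without CK_R replicate 3, those without a leaf count were 14822 (14.2%). With a stricter rule, 739 had at least 1 CPM in every root library and no count in leaf and 257 had the reverse. None of these 739 and 257 was a listed unigene. At least 16-fold differences were reached by 4573 DEGs higher in root and 2699 lower in root. In bulk organs, a change in the share of a cell type and a change in its expression per cell cannot be told apart.

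Unigenes with photosynthesis terms are described first. Of 4 unigenes that the study's cadmium lists give a photosynthesis, photosystem or chloroplast term, 3 were lower in root, and Cluster-14691.52923 (photosynthesis, chloroplast) went from 117, 68.5 and 66.9 CPM in leaf to 7.41, 8.42 and 6.0 in root, with a log2 fold change of -3.53 ± 0.34 (edgeR adjusted p = 3.17e-04). The remaining unigene, Cluster-14691.18292, with photosystem II terms, was higher in root. It stood at 0.206, 0.104 and 0.323 CPM in leaf and at 1.71, 2.11 and 1.21 in root (log2 fold change 2.96 ± 0.54, edgeR adjusted p = 0.00395). It came from the study's list of treated against control root, and the 3 others from that of treated against control leaf. Both lists were chosen with these same control libraries, so the directions are not a check of the organs. DEGs with separate organs and a mean of at least 1 CPM in each organ were ranked by log2 fold change. The 2 lowest and the 2 highest have no name in the sources used here. Cluster-14691.48602 fell from 6239, 4552 and 9552 CPM in leaf to 0.418, 1.67 and 0.952 in root, and Cluster-14691.59202 stood at 1.4, 0.939 and 1.35 CPM in leaf against 203, 441 and 31.8 in root. Second lowest was Cluster-14691.48454, with 3902, 3664 and 7157 CPM in leaf and 1.25, 2.94 and 0.793 in root. Second highest was Cluster-14691.22638, with 1.56, 1.72 and 0.485 CPM in leaf and 217, 249 and 36.1 in root. The log2 fold changes of these 4 unigenes were -12.71, 7.51, -11.53 and 7.04, in the order named (edgeR adjusted p of 1.79e-04 to 0.00121).

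**Figure D1:**
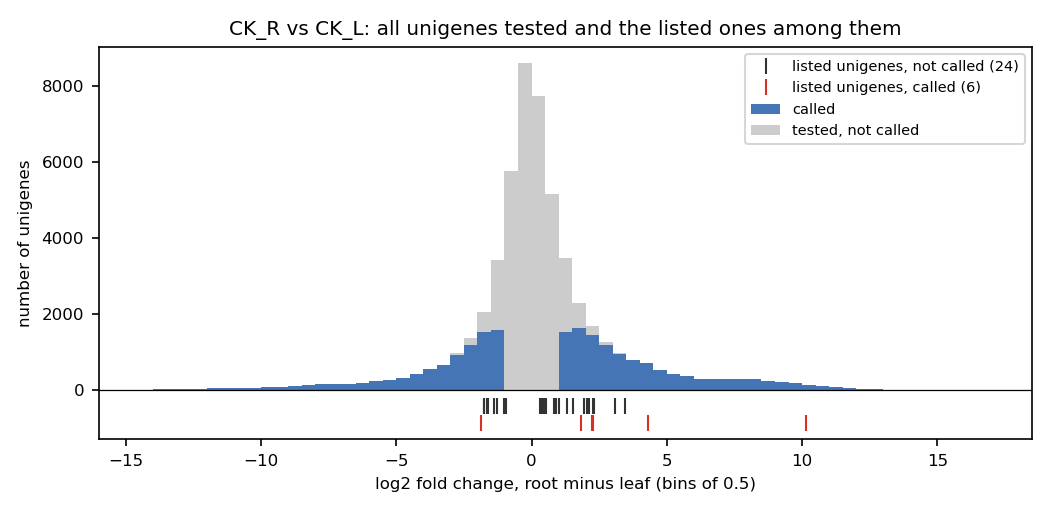
Number of unigenes (vertical axis) by log2 fold change of root minus leaf (horizontal axis, bins of 0.5) in control plants, with called unigenes in blue and the others in grey. Ticks under the axis are the 30 listed unigenes that could be tested, of which the 6 in red were called, and they lie between -1.86 and 10.16.

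Of the 56 listed unigenes, 30 had enough counts to test and 26 did not. Because the study left out what it had called between these organs, a low number of calls follows from the choice. Among the 30, 5 were called higher in root and 1 lower, beside 22.3% and 16.8% of all unigenes tested, and without the alpha expansin, which had no leaf count, 4 of 29 were called higher. The median log2 fold change of the 30 was 0.96, beside 0.05 over all unigenes tested, with 21 above 0 and 9 below under every scaling tried. The study took its lists from the contrast of treated root and treated leaf. In that contrast, as tested here, 26 listed unigenes were called higher in root and 9 lower, and 99 and 18 of the wider lists. Medians above 0 are therefore favoured by the choice. Without CK_L replicate 1 the calls went from 6 to 2, and with all 12 libraries in the model to 16. In the wider lists, 112 of 220 unigenes were tested, and 9 were called higher and 1 lower, with a median of 0.91. These 10 calls became 66 with library totals, 42 with the 12 libraries in the model, 34 without CK_L replicate 2, 20 without CK_R replicate 3, 5 without CK_L replicate 3 and 2 without CK_L replicate 1. All 26 untested members were counted in root, and 16 of them, or 17 of the 56 in all, had no count in any leaf library. Of all untested unigenes, 39.9% had no leaf count. The leaf and root ranges of CPM did not overlap in 11 of the 30 tested members, with root above in 6 and below in 5. Among all tested unigenes the ranges were apart in 55.0%, with root above in 29.8% and below in 25.2%.

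**Figure D2:**
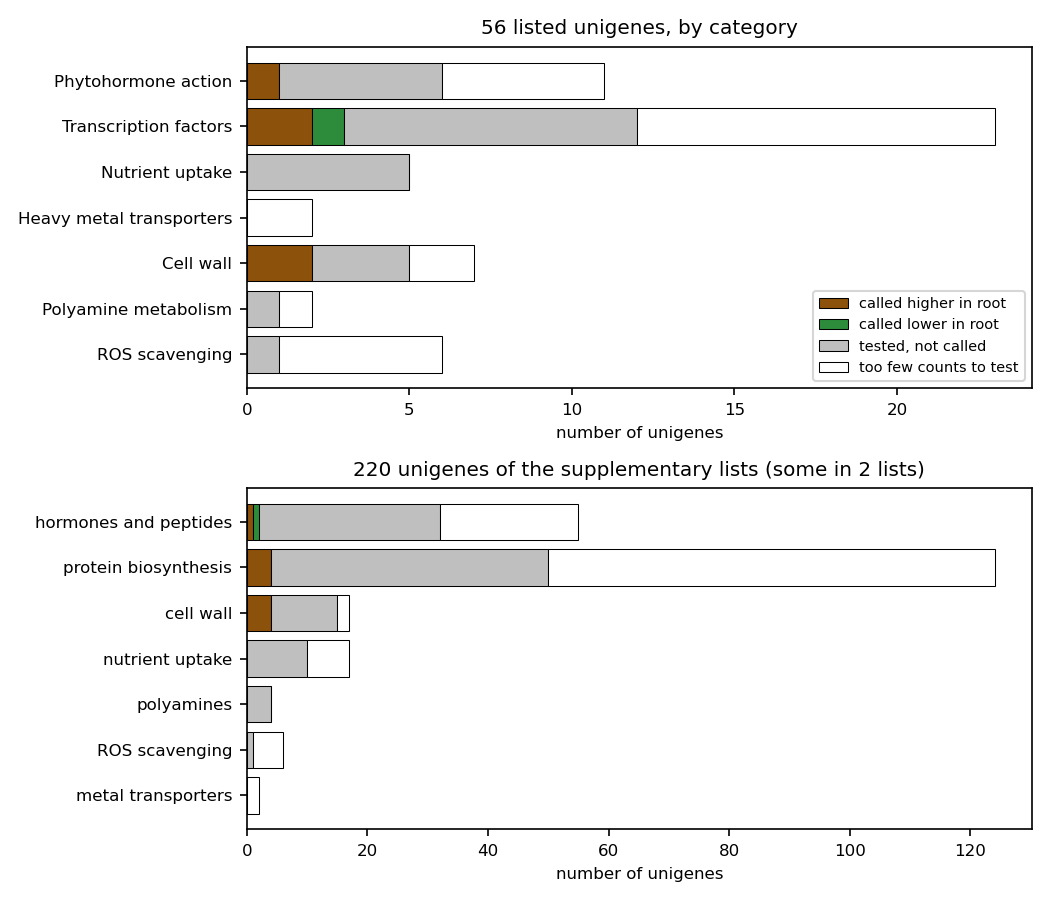
Number of unigenes (horizontal axis) by outcome in CK_R vs CK_L, for the 7 categories of the 56 listed unigenes (top) and for the 7 wider lists (bottom). White parts could not be tested for lack of counts, as 26 of the 56 could not, and calls of either direction were few in every category.

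The hormone members comprised enzymes of synthesis and breakdown, signal components and peptides. EIN2, the membrane protein through which the ethylene signal reaches the nucleus in Arabidopsis, was called, as 1 of 6 hormone members tested out of 11, beside 39.1% of all unigenes tested. Cluster-14691.10785, which carries that name, had 0.494, 0.469 and 0.215 CPM in leaf and 0.766, 1.47 and 2.06 in root. The organs did not overlap, at 0.393 ± 0.154 in leaf and 1.43 ± 0.649 in root (SD, n = 3), and the log2 fold change was 1.84 ± 0.56 (edgeR adjusted p = 0.0317). The call was lost when CK_L replicate 1, 2 or 3 or CK_R replicate 2 or 3 was left out (adjusted p 0.0701 to 0.121). ACC oxidase (Cluster-14691.11710), the last enzyme of ethylene synthesis, had 0.741, 0.417 and 4.09 CPM in leaf and 1.53, 3.22 and 15.2 in root. Its ranges overlapped, with the highest value of each organ in replicate 3, and the log2 fold change of 1.94 ± 1.06 did not pass (edgeR adjusted p = 0.186). It was 0.46 without CK_R replicate 3 and 3.47 without CK_L replicate 3.

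Abscisic acid is made through NCED, a dioxygenase that cleaves a carotenoid, and is broken down by a hydroxylase. NCED (Cluster-14691.43609) had 12.6, 4.49 and 4.42 CPM in leaf and 2.19, 0.119 and 4.67 in root, a log2 fold change of -1.62 ± 0.97 (edgeR adjusted p = 0.224). The abscisic acid hydroxylase (Cluster-14691.50813) had 116, 81.8 and 33.2 CPM in leaf and 157, 43.3 and 120 in root. Its log2 fold change was 0.47 ± 0.57 (edgeR adjusted p = 0.555), and both genes overlapped between the organs. The YUCCA2-related monooxygenase (Cluster-14691.49474), of auxin synthesis, had 3.25, 20.4 and 9.48 CPM in leaf and 5.05, 0.397 and 5.20 in root, with a log2 fold change of -1.63 ± 0.92 (edgeR adjusted p = 0.199). An auxin efflux carrier of the PIN family (Cluster-14691.13200) had 36 counts over the 3 root libraries (22, 6 and 8) and 4 in leaf, all in CK_L replicate 2, too few to test. The gibberellin oxidase GA20ox (Cluster-14691.11833), of late gibberellin synthesis, had 2.22, 1.41 and 6.78 CPM in leaf and 4.25, 7.71 and 6.57 in root, a log2 fold change of 0.83 ± 0.59 (edgeR adjusted p = 0.299).

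Precursors of signalling peptides had few counts in leaf. The hormone list of the study holds 18 unigenes with this annotation, of the CLE, CEP, DVL/RTFL, EPF, PIP, PNP, RALF and PSK classes. In 16 of the 18, no leaf library held a count while root did. The same was true of 88 of the 108 untested unigenes of the wider lists, of 66 of the 74 untested protein biosynthesis unigenes and of 39.9% of all untested unigenes. Root counts of the 16 were mostly few, but the PNP precursor (Cluster-14691.8155) had 23, 0 and 824. Of the 18, only the phytosulfokine precursor (Cluster-14691.75189) could be tested. It had 0.247, 1.88 and 0.162 CPM in leaf and 1.98, 2.78 and 5.40 in root, with a log2 fold change of 2.16 and an edgeR adjusted p of 0.0891. Among the listed peptides, CLE25 (Cluster-15957.0) had 5, 22 and 1 counts in the root libraries, CEP1 (Cluster-14691.82632) had 4, 0 and 45, and the members named RTFL8 (Cluster-14691.10408) and RTFL15 (Cluster-14691.12312) had 6, 10 and 4 and 6, 9 and 7. Against a floor of 3 counts over the leaf group, CEP1 was at least 11.9-fold, CLE25 at least 6.78-fold, RTFL15 at least 5.33-fold and RTFL8 at least 4.84-fold higher in root. These bounds cover the counting error of the leaf group alone, not the spread between replicates, and CK_R replicate 3 held 45 of the 49 root counts of CEP1. Over the 18 precursors the summed level was 0.247 to 1.88 CPM in leaf and 6.23, 7.27 and 37.5 CPM in root. The highest was again in CK_R replicate 3, where the PNP precursor alone held 26.2 CPM.

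In the other parts of the hormone list, a lipoxygenase of jasmonate synthesis (Cluster-14691.65388) was called lower in root. It had 20, 458 and 12 counts in leaf and 2, 0 and 0 in root, a ratio of leaf over root of 337 with an exact 95% counting interval of 92.9 to 2793. CK_L replicate 2 held most of the leaf counts, and without it the ratio was 31.9 (8.13 to 274). This unigene passed the filter through its leaf counts alone. Of 32 hormone unigenes tested, this one and EIN2 were called (6.25%), beside 39.1% of all unigenes tested.

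The listed transcription factors included 3 of the 6 calls. The bZIP factor Cluster-14691.13800, of a family that binds DNA through a basic region and a leucine zipper, had 0.658, 0.835 and 0.485 CPM in leaf and 32.2, 4.09 and 3.43 in root. All root libraries lay above all leaf libraries, but CK_R replicate 1 was far above the other root libraries, and the log2 fold change was 4.32 ± 0.97 (edgeR adjusted p = 0.00947). The call held with each of the 6 libraries left out in turn, but the log2 fold change went to 2.51 without CK_R replicate 1, and DESeq2 gave no adjusted p for it. The CRF5-related unigene (Cluster-14691.27999) is an ethylene-responsive (AP2/ERF) factor by the study's name, and its subgroup was not checked. It had 0.453, 0.626 and 0.485 CPM in leaf and 3.41, 1.91 and 2.38 in root. Its log2 fold change was 2.29 ± 0.43 (edgeR adjusted p = 0.00423, the lowest of the 30), and the call was kept under every alternative in which it was tested. In cadmium plants the same unigene had 0.593, 0.441 and 0.391 CPM in leaf and 0.793, 0.340 and 0.475 in root. The interaction of organ and treatment in all 12 libraries was -2.10 on the log2 scale, with an unadjusted p of 0.00479 and an edgeR adjusted p of 1.00.

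WRKY46 (Cluster-32613.0), of a family known from defence and stress signalling, was the only listed unigene called lower in root, with 1.73, 2.03 and 1.72 CPM in leaf and 0.661, 0.119 and 0.698 in root. The log2 fold change was -1.86 ± 0.61 (edgeR adjusted p = 0.0418), and the call was lost without CK_L replicate 1, 2 or 3 and without CK_R replicate 1 (adjusted p 0.0711 to 0.101). With library totals it was -1.33 (adjusted p = 0.131). The MYB11-related factor (Cluster-14691.61708) and the helix-loop-helix factor (Cluster-14691.57184) also had all root libraries below all leaf libraries, with log2 fold changes of -1.77 ± 0.67 (edgeR adjusted p = 0.0696) and -1.40 ± 0.56 (edgeR adjusted p = 0.0823) that did not pass. RAX2 (Cluster-14691.40443), a MYB factor, and the SHN-type ERF factor (Cluster-14691.32159) had log2 fold changes of -0.94 and -1.29, with overlapping organs (edgeR adjusted p = 0.386 and 0.239). ERF11 (Cluster-14691.28900) had 22.4 CPM in CK_R replicate 1 against 0.834 and 2.86 in the other root libraries and 0.646 to 2.71 in leaf, with a log2 fold change of 2.31 ± 1.12 (edgeR adjusted p = 0.140). The sign of RAP2.11 (Cluster-14691.11372, log2 fold change 0.33, edgeR adjusted p = 0.856) turned when CK_L replicate 1, CK_L replicate 2 or CK_R replicate 3 was left out.

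Of the 23 transcription factors, 11 had too few counts to test. AIL1 (Cluster-15337.0), whose AINTEGUMENTA family acts in growing meristems, had no count in leaf and 7, 11 and 5 in root, at least 5.57-fold higher in root. ERF003 (Cluster-14691.77282) had 1, 2 and 0 counts in leaf and 10, 21 and 11 in root, a ratio of 10.2 with an exact 95% counting interval of 3.25 to 51.3. The ERF071-related unigene (Cluster-14691.5263) had 1, 1 and 0 counts in leaf and 16, 5 and 7 in root, a ratio of 10.2 (2.56 to 88.1). WRKY31 (Cluster-19280.1) had no leaf count and 5, 3 and 11 in root. The WRKY member Cluster-14691.59464 differed from these, with 9, 42 and 5 counts in leaf and 14, 0 and 0 in root.

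**Figure D3:**
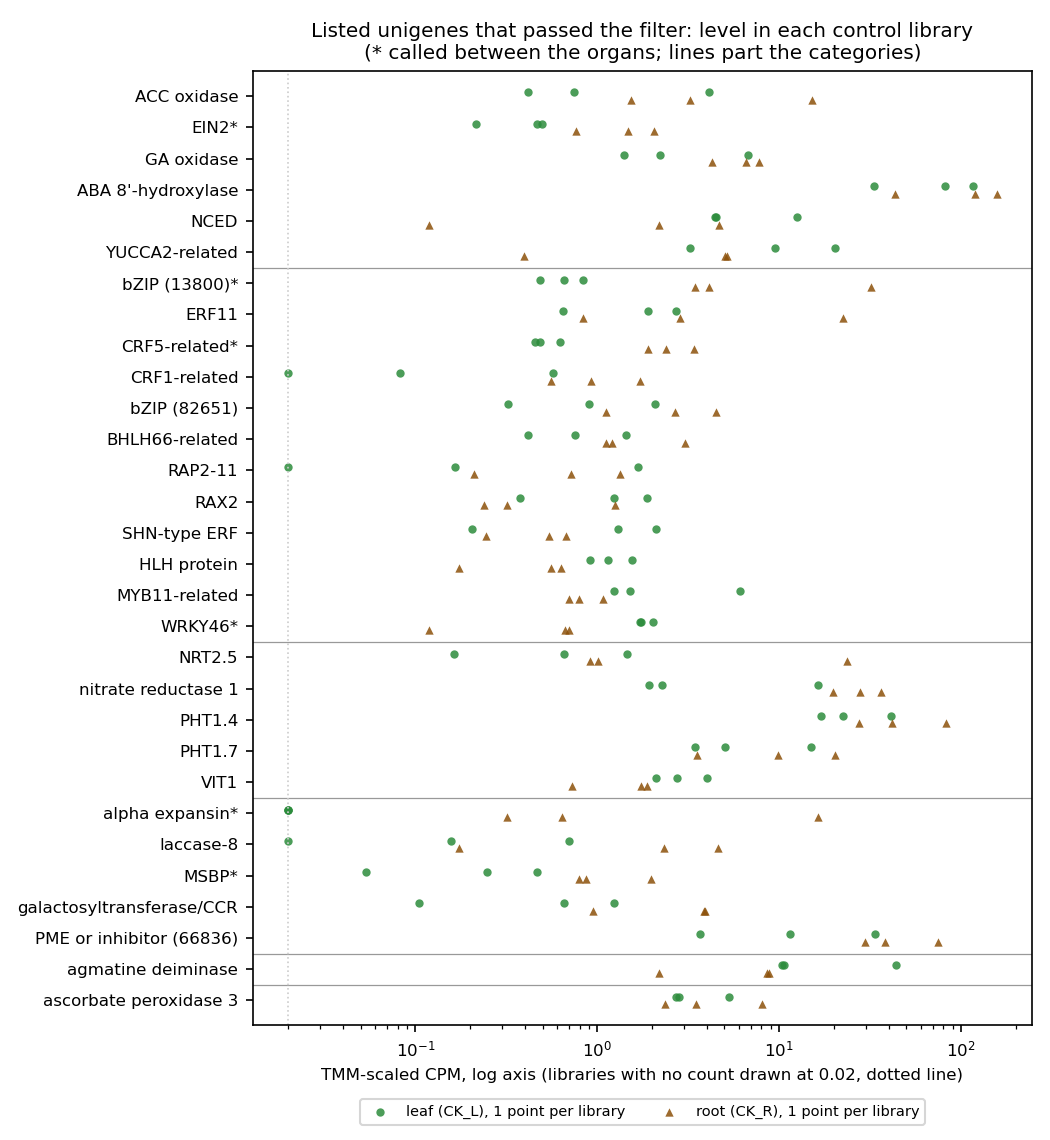
Level of each of the 30 tested listed unigenes in every control library, in TMM-scaled CPM on a log axis, with leaf libraries as green circles and root libraries as brown triangles. Asterisks mark the 6 called unigenes, whose leaf and root points do not overlap, and libraries without a count sit on the dotted line.

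None of the 5 nutrient members was called, beside 39.1% of all unigenes tested. Several of them are root transporters by their known role. The study had left out what it called between these organs, so a lack of calls is favoured by the choice. NRT2.5 (Cluster-14691.17907), a high-affinity nitrate transporter, had 0.658, 1.46 and 0.162 CPM in leaf and 1.01, 0.914 and 23.5 in root. The organs overlapped, CK_R replicate 3 was far above the other libraries, and the log2 fold change of 3.47 ± 1.39 (edgeR adjusted p = 0.0828) went to 0.35 without that library (adjusted p = 0.765). Nitrate reductase 1 (Cluster-14691.36103), the first enzyme of nitrate assimilation, had 1.93, 16.3 and 2.26 CPM in leaf and 19.9, 27.7 and 36.2 in root. Every root library lay above every leaf library, but CK_L replicate 2 came close, and the log2 fold change of 2.04 ± 0.80 did not pass (edgeR adjusted p = 0.0787). Without CK_L replicate 2 it was 3.70 and passed (edgeR adjusted p = 0.00194), as it did in DESeq2 (adjusted p = 0.0344). The phosphate transporters PHT1.4 (Cluster-14691.45899) and PHT1.7 (Cluster-14691.51441) were present in both organs. PHT1.4 had 41.3, 22.5 and 17.1 CPM in leaf and 41.8, 27.6 and 82.6 in root (log2 fold change 0.91 ± 0.48, edgeR adjusted p = 0.175), and PHT1.7 had 14.9, 3.44 and 5.06 in leaf and 3.55, 9.85 and 20.2 in root (0.52 ± 0.72, edgeR adjusted p = 0.607). Both overlapped between the organs, and PHT1.7 turned to -0.22 without CK_R replicate 3. VIT1 (Cluster-14691.23657), which loads iron into the vacuole, lay lower in every root library, at 1.74, 1.87 and 0.730 CPM against 2.10, 4.02 and 2.75, with a log2 fold change of -1.03 ± 0.48 (edgeR adjusted p = 0.126). Of the 17 unigenes of the wider nutrient list, 10 were tested and none was called, with a lowest edgeR adjusted p of 0.0787, and 2 had an unadjusted p of at most 0.05.

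Both metal transporters had too few counts to test. Nramp1 (Cluster-27204.0), which imports manganese and iron in Arabidopsis, had 1, 3 and 4 counts in leaf and 15, 16 and 9 in root, and the root CPM lay above the leaf CPM in every library. HMA3 (Cluster-14691.35424), an ATPase that pumps cadmium and zinc into the vacuole in Arabidopsis, had 26, 4 and 12 counts in leaf and 3, 0 and 7 in root, with overlapping ranges. The root transporters of the list cannot serve as a check of the organ, since the study had left out what it called between these libraries.

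In the cell wall group, 5 of 7 members were tested, all with a log2 fold change above 0, beside 51.7% of all unigenes tested. The study chose them from the contrast of treated root and treated leaf, so this shared sign is favoured by the choice. In control plants 2 were called higher in root, beside 22.3% of all unigenes tested. Of these 2, the expansin had no count in leaf. MSBP (Cluster-14691.27253), named by the study as a progesterone binding protein and annotated as a scaffold for the cytochrome P450 enzymes of lignin synthesis, had 0.247, 0.469 and 0.0538 CPM in leaf and 0.870, 0.794 and 1.97 in root. Its log2 fold change was 2.22 ± 0.72 (edgeR adjusted p = 0.0417), and leaving out any library but CK_L replicate 2 ended the call (adjusted p 0.0540 to 0.148). The alpha expansin (Cluster-14691.76733), of a family that loosens walls, had no count in leaf and 16.4, 0.636 and 0.317 CPM in root. CK_R replicate 1 held most of it, and the level was at least 121-fold higher in root against the floor of 3 leaf counts. The expansin passed the filter through its root counts alone, its edgeR adjusted p was 0.0370, and the call was lost without CK_L replicate 1, 2 or 3 (adjusted p 0.0766 to 0.0870). DESeq2 gave no adjusted p for it, and without CK_R replicate 1 the fitted log2 value went from 10.16 to 6.51. Laccase-8 (Cluster-14691.6397), of lignin polymerization, had 0, 0.156 and 0.700 CPM in leaf and 0.174, 2.34 and 4.6 in root, with a log2 fold change of 3.09 ± 1.33 (edgeR adjusted p = 0.101). Cluster-14691.14990, named by the study as a cinnamoyl CoA reductase but annotated in its wider list as a galactosyltransferase of pectin synthesis, had 0.658, 0.104 and 1.24 CPM in leaf and 3.86, 3.89 and 0.952 in root (log2 fold change 2.11 ± 0.83, edgeR adjusted p = 0.0782). Cluster-14691.66836, which the main list names after the invertase and pectin methylesterase inhibitors and the wider list as a pectin methylesterase, an enzyme that changes the charge of pectin, had 11.5, 3.65 and 33.8 CPM in leaf and 38.4, 74.7 and 29.6 in root (1.54 ± 0.74, edgeR adjusted p = 0.136). The listed pectin methylesterase PME61 (Cluster-20197.0) had no count in leaf and 7, 7 and 11 in root, at least 6.05-fold higher in root.

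In the wider cell wall list, 4 of 15 tested unigenes (26.7%) were called higher in root and none lower, beside 22.3% and 16.8% of all unigenes tested, and the median log2 fold change was 1.63. Without the expansin, 3 of 14 (21.4%) were called higher. The study's choice favours a median above 0 in this list too. The calls besides MSBP and the expansin were a CSLF glucan synthase (Cluster-14691.74366), of the family that makes the mixed-linkage glucan of grass walls, and a fucosyltransferase (Cluster-14691.74646) of xyloglucan type. The glucan synthase had 0.247, 4.07 and 0 CPM in leaf and 21.9, 40.5 and 6.95 in root, with a log2 fold change of 4.01 ± 1.36 (edgeR adjusted p = 0.0480). The fucosyltransferase had 0.453, 0.782 and 0.861 CPM in leaf and 1.11, 3.89 and 1.94 in root (1.73 ± 0.57, edgeR adjusted p = 0.0436). Both had all root libraries above all leaf libraries. Of the 10 calls in the wider lists, 1 was kept without CK_L replicate 1 and 1 without CK_L replicate 3. At most 1 of these 2 calls was therefore kept in each case. The EG45-like protein (Cluster-14691.8155), also listed as a PNP peptide precursor, had 23, 0 and 824 counts in root and none in leaf.

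Polyamine members, which act on putrescine and its products, had no call, beside 39.1% of all unigenes tested. All those tested had values below 0 in TMM-scaled data, beside 26104 of all 54084 unigenes tested. The 4 of the wider polyamine list were all called lower in root in cadmium plants, so this sign is favoured by the study's choice. Agmatine deiminase (Cluster-14691.48898), an early enzyme of putrescine synthesis from arginine, had 10.4, 43.9 and 10.7 CPM in leaf and 8.53, 8.78 and 2.19 in root. The organs did not overlap, and the log2 fold change was -1.74 ± 0.72 (edgeR adjusted p = 0.0929). The 4 unigenes of the wider polyamine list, 3 of them agmatine deiminases (also called iminohydrolases) and 1 a polyamine oxidase, had log2 fold changes of -1.74 to -0.34, and that of the oxidase turned above 0 with library totals. The unigene named lysine decarboxylase (Cluster-14691.6139) is annotated in the hormone list as a cytokinin phosphoribohydrolase, and it had 6, 0 and 13 counts in leaf and 4, 6 and 43 in root.

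Of the 6 members named for reactive oxygen, which cells make with NADPH oxidases and remove with catalase, peroxidases, superoxide dismutase and glutathione enzymes, only ascorbate peroxidase 3 (Cluster-14691.24413) could be tested. It had 2.72, 5.27 and 2.80 CPM in leaf and 8.04, 3.50 and 2.35 in root, with overlapping organs and a log2 fold change of 0.37 ± 0.53 (edgeR adjusted p = 0.621). In cadmium plants its log2 fold change was 3.47, and the interaction of 3.13 on the log2 scale had an unadjusted p of 0.0132 and an edgeR adjusted p of 1.00. The study's choice of members favours such a difference between the contrasts. The other 5 had no count in any leaf library and nearly all their root counts in CK_R replicate 3. NADPH oxidase 1 (Cluster-14691.12641) had 36, 0 and 1682 counts in root replicates 1, 2 and 3, the glutathione S-transferase (Cluster-14691.9539) had 1, 4 and 324, the unigene named catalase (Cluster-10504.0) had 0, 0 and 151, the superoxide dismutase (Cluster-14691.9595) had 0, 0 and 66, and Glutaredoxin-C5 (Cluster-14691.81808) had 1, 3 and 36. The Arabidopsis identifier that the study gives the catalase, AT1G07890, is that of a cytosolic ascorbate peroxidase. CK_R replicate 3 is the library with 11136 unigenes that no other control library counted. Among the treated roots, Cd_R replicate 1 had 105247 unigenes with a count, against 85647 and 87003 in replicates 2 and 3. It also had the highest treated-root CPM of each of these 5 members, as in the catalase (2.13, against 0.0756 and 0.0791).

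CK_R replicate 3 also stood out in the protein biosynthesis list, which holds ribosomal proteins, their assembly factors and translation factors. Of its 124 unigenes, 56 have their best protein match in a grass, 46 in another land plant and 22 outside the land plants. As CPM of the unscaled library total, the 22 summed to 1.73, 3.02 and 1.07 in leaf and to 4.91, 13.2 and 16.3 in root, and the 46 to 2.23, 3.96 and 1.87 in leaf and to 11.3, 12 and 78.9 in root. Over the 46 and the 22 jointly, the root mean was 45.5 ± 43.3 against 4.63 ± 2.10 in leaf (SD, n = 3). The difference of 40.9 went to 16 without CK_R replicate 3. In the treated roots the joint sum was 227, 34.3 and 34.0, the highest in Cd_R replicate 1. Of the 22, 20 had no count in leaf, and 2 could be tested. Whether these root counts come from other organisms was not tested, and the same holds for the reactive oxygen members above.

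**Figure D4:**
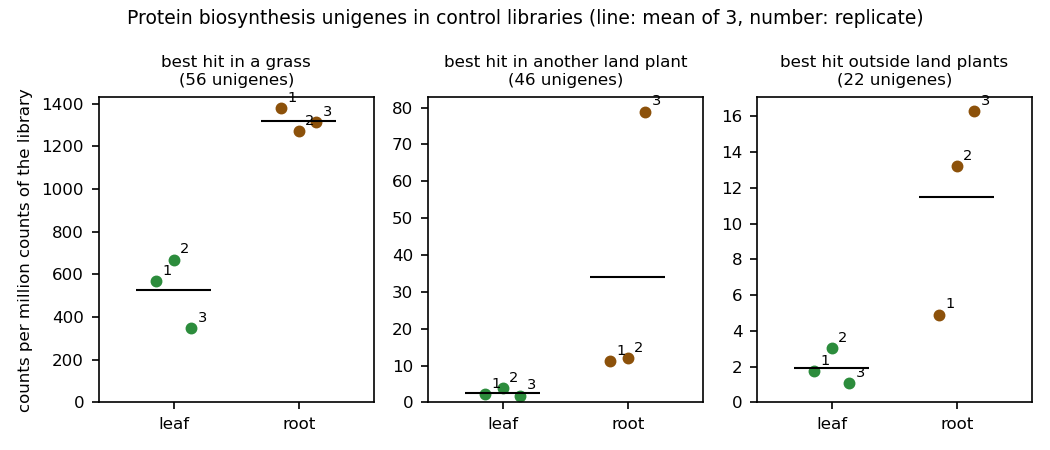
CPM of the unscaled library total (vertical axes, from 0) summed over the protein biosynthesis unigenes by best match, for each control library, with replicate numbers beside the points and the mean of 3 libraries as a line. Root replicate 3 reaches 78.9 in the middle panel while root replicates 1 and 2 stay at 11.3 and 12, and the grass panel shows root libraries at 1273 to 1378 against 348 to 669 in leaf.

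The 56 grass-matched unigenes summed to 569, 669 and 348 in leaf in the same unit and to 1378, 1273 and 1312 in root, with no overlap. The study had chosen them from the contrast of treated root and treated leaf, so a higher level in root is favoured by the choice. Of the 44 that could be tested, 42 had a log2 fold change above 0, with a median of 0.92, beside 51.7% of all unigenes tested. An edgeR adjusted p of at most 0.05 at any fold was reached by 12 of the 44, beside 41.0% of all unigenes tested, and 3 of the 12 reached the 2-fold limit. A protein of the small subunit of the mitochondrial ribosome (Cluster-14691.4050) had 0.206, 0.156 and 0.108 CPM in leaf and 0.870, 0.477 and 0.762 in root (log2 fold change 2.11 ± 0.52, edgeR adjusted p = 0.0144). The poly-A binding protein (Cluster-14691.47536), which coats mRNA tails, had 106, 105 and 110 CPM in leaf and 211, 189 and 172 in root (0.83 ± 0.25, edgeR adjusted p = 0.0311), and stayed under the limit.

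**Figure D5:**
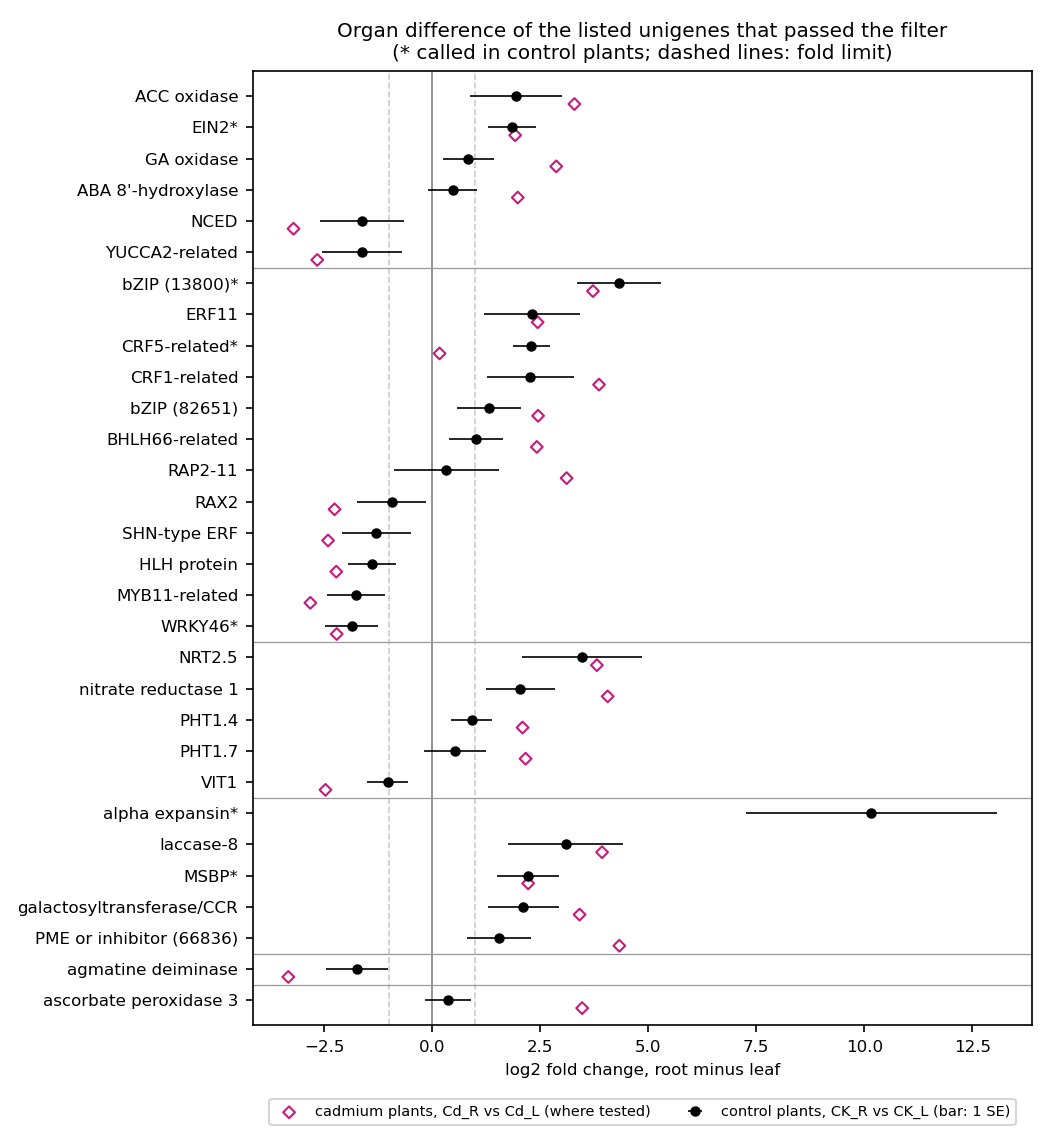
Log2 fold change of root minus leaf (horizontal axis) of the 30 tested listed unigenes, in control plants (black points, bars of 1 SE) and in cadmium plants where tested (open diamonds). The diamond lies farther from 0 than the black point in most unigenes, as their choice by the study from the cadmium contrast favours, and the CRF5-related unigene lies at 2.29 in control and 0.17 in cadmium plants. The value of 10.16 for the alpha expansin is a fitted value against an organ without counts.

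The organ contrast was repeated in the cadmium plants, in libraries that share none with the control contrast. There 22243 of 54423 unigenes (40.9%) were called, 12525 (23.0%) higher in root and 9718 (17.9%) lower. Of the 21172 control DEGs, 16868 (79.7%, or 75.8% of the cadmium DEGs) were called again in the same direction and 0 in the opposite one. Of the control DEGs higher in root 9467 (78.5%) recurred, and of those lower in root 7401 (81.2%). Among the 6 called listed unigenes, EIN2 (log2 fold change 1.92), the bZIP factor (3.72), MSBP (2.22) and WRKY46 (-2.21) were called in cadmium plants too, the CRF5-related unigene was not (0.17 ± 0.45, edgeR adjusted p = 0.779), and the expansin had too few counts there. The interaction gave no call with edgeR among 61242 unigenes (0%), where 1941 (3.17%) had an unadjusted p of at most 0.05, while DESeq2 called 14. None of the 56 listed unigenes was among the calls of either tool. With edgeR, 48 of them were tested, and 6 had an unadjusted p of at most 0.05. The study chose them as called between treated organs and not between control organs, so low unadjusted p-values are favoured by the choice.

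The other 6 unigenes of the study's qRT-PCR set were all called between the control organs, 4 higher and 2 lower in root. The study had selected them as DEGs of other contrasts of this series, some of which used the same control libraries. A sucrose 1-fructosyltransferase (Cluster-14691.50971), which starts fructan synthesis, had 68.0, 211 and 326 CPM in leaf and 17.8, 1.63 and 9.84 in root (log2 fold change -4.37 ± 0.94, edgeR adjusted p = 0.00773). A xylanase (Cluster-14691.49288) had 23.1, 2.30 and 67.5 CPM in leaf and 1266, 881 and 669 in root (4.92 ± 1.10, edgeR adjusted p = 0.00920). An ABC transporter (Cluster-14691.76303) had 0, 0.887 and 0.0538 CPM in leaf and 29.4, 125 and 41.3 in root (7.73 ± 1.25, edgeR adjusted p = 0.00239). In each of the 3 the organs were fully apart, and all were called in the same direction in cadmium plants. The remaining unigenes were named Glycine (Cluster-14691.18708, 4.18 ± 0.82, edgeR adjusted p = 0.00522), GQ55 (Cluster-14691.10370, 2.20 ± 0.52, edgeR adjusted p = 0.0116) and BAE44 (Cluster-14691.31660, -3.41 ± 0.77, edgeR adjusted p = 0.00947), with these log2 fold changes. Of the unigenes that the study called between treated and control plants, 71 of 106 tested from the root list (67.0%) and 24 of 52 from the leaf list (46.2%) were DEGs of the control organs, beside 39.1% of all unigenes tested. Both lists were chosen with the same control libraries.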

How the data were processed

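Leaf and root RNA of control and cadmium-treated giant reed was made into poly-A libraries and sequenced on an Illumina instrument. The authors assembled the reads with Trinity, reduced transcripts to unigenes with Corset and mapped reads back with RSEM. The values that the authors deposited are RSEM expected counts, not normalized, of which 88.58% are whole numbers. No reference genome was used, so near-identical copies can share reads, and unigene lengths are not used here, so levels are not compared between unigenes.

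Counts were rounded and tested in R 4.3.3 with the quasi-likelihood test of edgeR 4.0.16 (TMM, filterByExpr, only the 6 control libraries), with p adjusted by Benjamini-Hochberg over all unigenes tested. Calling a unigene took an adjusted p no higher than 0.05 together with a 2-fold or larger difference. SE is the absolute log2 fold change over the square root of F, and CPM are TMM-scaled. Library totals were 22501889 to 26033537 counts. A group without counts was set at a floor of 3 counts, and intervals of count ratios are exact at 95%. Intervals and bounds cover counting error only. Summed shares of counts are given without a test, since the study chose the unigenes in a contrast of the same organs. The test was checked on simulated data.

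Alternatives were RLE size factors, library totals, no or a stricter filter (10 counts in each of 3 libraries), DESeq2 1.42.0, a joint model of the 12 libraries, a block for replicate number, no fold limit, and leaving out each control library. Named unigenes are those of the study's main list and qRT-PCR table, those of a wider list where the sentence is about it, and the 2 DEGs with the highest and the 2 with the lowest fold change among those with separate organs and a mean of at least 1 CPM in each. The members, lists and rules were chosen with earlier results of these data known. The study describes 3 replicate pots per treatment, so both organs of a treatment came from the same pots. The sample labels do not tie a leaf number to a root number.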

Additional observations from a re-analysis of the deposited data

How the results depend on the processing

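The number of DEGs between control root and control leaf stayed within 16806 to 25372 under every alternative run. Counts of called list members moved more. With library totals in place of TMM, the calls among the 56 listed unigenes went from 6 to 10 (5 of them shared) and among the 220 of the wider lists from 10 to 66. A joint model of the 12 libraries gave 16 and 42. In the wider lists, no filter on low counts gave 3 calls, DESeq2 20 and no fold limit 20. Leaving out 1 control library at a time gave 2 to 7 calls among the listed unigenes and 2 to 34 in the wider lists. Unigenes counted in one organ alone went from 739 to 1505 (root) and from 257 to 403 (leaf) with at least 10 counts per library in place of 1 CPM, and those of leaf to 284 to 400 with 1 library left out. The log2 fold change of the cyclin dependent kinase (Cluster-14691.35187) turned to 0.25 with library totals. With 1 library left out, that of RAP2.11 (Cluster-14691.11372) ran from -0.38 to 2.99, of ascorbate peroxidase 3 (Cluster-14691.24413) from -0.29 to 0.72 and of PHT1.7 (Cluster-14691.51441) from -0.22 to 1.34. Further values, chosen after seeing the data, stand in the text: unigenes without a leaf count when CK_R replicate 3 is left out, and the lipoxygenase ratio without CK_L replicate 2. Apart from the direct effect of fewer libraries or unigenes, the cause was not tested.

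Replicate numbers of leaf and root were not taken as a pairing in the main fit. Same-numbered libraries deviated from their organ means with correlations of 0.09895, 0.2443 and 0.151. CK_L replicate 1 correlated better with CK_R replicate 3 (0.1103), while the remaining pairs of different number had correlations of -0.2064 to -0.03038. A pairing by pot therefore remains possible. With the replicate block there were 21413 DEGs and 28 calls in the wider lists. Among the listed unigenes there were 7 calls, of which 3 were shared, EIN2, MSBP and WRKY46 lost theirs, and ACC oxidase (adjusted p = 0.0183), nitrate reductase 1 (0.0301), agmatine deiminase (0.0431) and laccase-8 (0.00853) gained one, by edgeR. Members with few counts were beyond the reach of the test at this depth.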
